A study of Homo sapiens with 9 samples.

Results

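JPX-0750 was compared with its vehicle DMSO in MV4-11, a human cell line established from acute myeloid leukaemia, which carries an MLL fusion and an activated FLT3 receptor. The comparison used 6 of the 9 libraries of the series, 3 with DMSO and 3 with JPX-0750, each from cells exposed for 24 h. The other 3 libraries received JPX-0700 and entered the estimate of spread and 1 direct comparison. The series title describes the compounds as degraders of STAT3 and STAT5 together. The dose of either compound is not given in the labels, and all groups share the cell line, the medium and the time. Nothing in the labels says that replicates came from separate cultures, so p-values reflect only how these libraries varied, which may be technical. Libraries were made with the QuantSeq kit for 3′ ends of polyadenylated messages.

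Of 26929 genes in the deposited table, 11941 had a mean of at least 5 normalised counts over the 6 libraries and were tested. A normalised count is a read count divided by 1 factor per library. Fold changes are given as log2 of (normalised count + 1), JPX-0750 over DMSO, with the standard error (SE), which understates the change of weakly expressed genes. The words rose, fell and changed refer to a Benjamini-Hochberg adjusted p under 0.05 over all genes tested in limma, with n = 3 libraries per group. List medians and counts are to be read against those of all genes tested. Of these 4.08% rose and 0.0921% fell, and their median log2 fold change was 0.24.

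STAT3 and STAT5 carry signals from cytokine receptors and from mutant FLT3 to the nucleus, where they activate genes of survival, proliferation and feedback inhibition such as the SOCS family. Cells that meet damaged proteins activate heat shock factor 1, which binds the heat shock element and induces chaperones. Several stresses converge on phosphorylation of the translation factor eIF2, which favours the transcription factor ATF4 and its targets for amino acid supply, while p53 and the immediate early genes answer DNA damage and kinase signals.

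The libraries differed in depth and in RNA classes. DMSO libraries held 2701317 to 6305586 reads on genes and JPX-0750 libraries 726043 to 1941860. Of the genes tested, 20.2% had no read in DMSO replicate 1 and 16.6% had none in JPX-0750 replicate 3, against 1.77% to 5.93% in the remaining 4 libraries. The log2 values of JPX-0750 replicates 1 and 2 correlated across genes at 0.887, but at 0.656 and 0.659 with replicate 3. Among DMSO libraries these correlations were 0.859 to 0.937. Protein-coding genes took 98.3% ± 0.202 (SD, n = 3) of reads with DMSO and 78.8% ± 2.12 with JPX-0750. The remainder was filled by noncoding RNA described further on. The lower depth and the lower protein-coding share moved with the treatment, while each group held 1 library poor in genes. With all libraries thinned to equal depth 436 genes rose and 10 fell, and with libraries scaled to protein-coding reads, a setting chosen after the data were seen, 378 rose and 19 fell, against 487 and 11 as deposited.

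With JPX-0750, 487 genes rose (4.08% of those tested) and 11 fell (0.0921%). With all libraries scaled to the same total, 307 rose and 59 fell, and the median over all genes tested moved from 0.24 to -0.28. The 498 that changed (4.17%) were 266 protein-coding genes, 168 genes of structured noncoding RNA (small nuclear, nucleolar, Y, vault and related RNA), 37 genes of long noncoding RNA, 12 pseudogenes, 12 genes without a RefSeq match and 3 others. All 11 that fell were protein-coding. The groups did not overlap in 496 of the 498, against 29.8% of all genes tested. A small p itself favours groups that do not overlap, so this count is not separate evidence. Of the 487, 117 had at most 3 reads in the DMSO group and 52 had none. When single libraries were left out in turn, 246 of the genes that rose kept their call in all 9 fits, and 0 of the 11 that fell did. Without DMSO replicate 1, JPX-0750 replicate 3 and JPX-0700 replicate 3, which detected the fewest genes of their groups, 2517 rose (20.7%) and 573 fell (4.7%) of 12179 tested, and all 498 were among them. List counts given below for that fit are to be read against these shares.

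**Figure D1:**
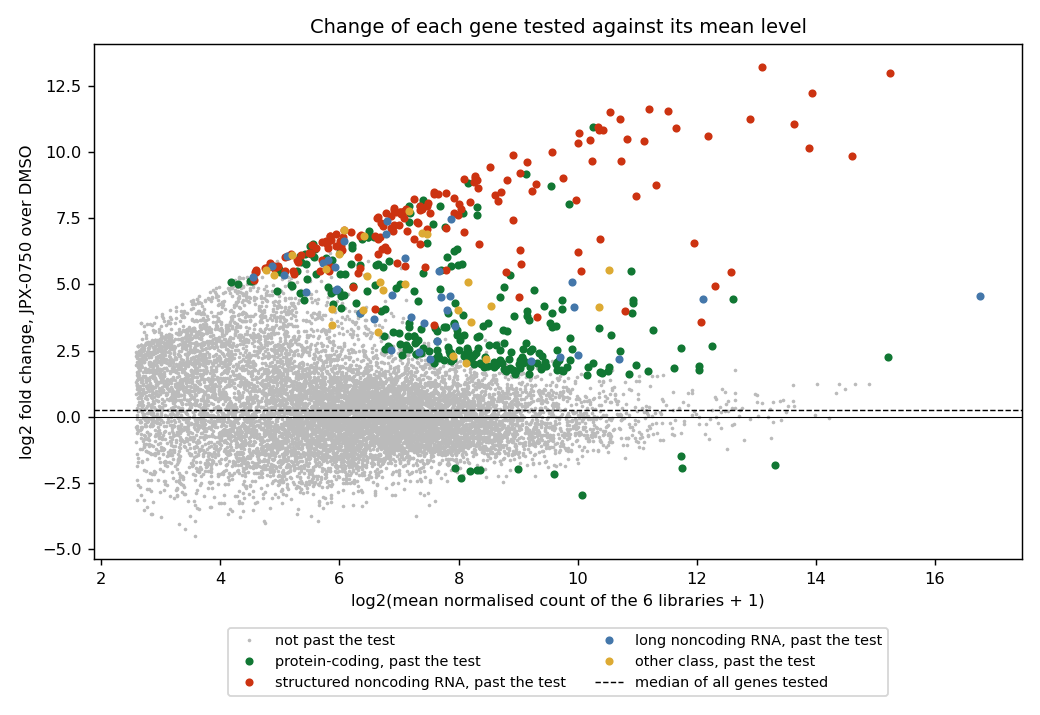
Each point is 1 of the 11941 genes tested. The horizontal axis gives log2 of (mean normalised count of the 6 libraries + 1), the vertical axis the log2 fold change of JPX-0750 over DMSO, and colour the class of the 498 genes past the test. Structured noncoding RNA fills the upper edge of the cloud, and the 11 genes that fell are all protein-coding.

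The transcripts of the proteins named as targets were measured first. STAT3 (chromosome 17, 42313324 to 42388442, GRCh38) had normalised counts of 279, 69.4 and 146 in DMSO replicates 1 to 3 and of 164, 282 and 34.99 with JPX-0750. For STAT5A (chromosome 17, 42287439 to 42311943) they were 108, 75.2 and 42.5 with DMSO and 51.4, 45.5 and 3.33 with JPX-0750. STAT5B (chromosome 17, 42199177 to 42288370) had 59.3, 47.9 and 71.1 against 41.1, 86.4 and 0. Replicate 3 was the lowest JPX-0750 library for each of these genes, and the groups overlapped for STAT3, STAT5A and STAT5B alike. The log2 fold changes were -0.26 ± 0.85 (SE) for STAT3, -1.70 ± 1.13 for STAT5A and -1.95 ± 1.44 for STAT5B, with adjusted p in limma of 0.917, 0.508 and 0.557. Their 95% intervals ran from -2.06 to 1.53, from -4.08 to 0.69 and from -5.00 to 1.10. Without JPX-0750 replicate 3 the values were 0.60, -0.53 and 0.02. Without JPX-0750 replicate 2, STAT3 was at -0.89 and STAT5B at -3.20, and without JPX-0750 replicate 1, STAT5A was at -2.33 and STAT5B at -2.67. These genes drew 27 to 131 reads over the JPX-0750 group. STAT5A and STAT5B share a short stretch of sequence where their spans meet, and transcript levels do not measure the proteins that the compounds are said to degrade.

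Genes downstream of the STAT proteins were read against the 4.17% of all tested genes that changed in either direction. Of 17 tested STAT5 target genes 0 rose and 0 fell, with a median of -0.53. At an adjusted p in limma of 0.178, SOCS1, a feedback inhibitor of JAK kinases, had the smallest p among them, at 3.98 ± 1.48 (SE). SOCS1 had 0, 4.22 and 0 normalised counts with DMSO, from 0, 11 and 0 reads. With JPX-0750 it had 37.7, 13.6 and 34.99, from 11, 3 and 21 reads. CISH, another feedback inhibitor, had 184, 123 and 80.8 with DMSO and 68.5, 72.8 and 1.67 with JPX-0750, so that its groups did not overlap at a log2 fold change of -2.37 ± 1.15 (adjusted p = 0.353). For MYC the values were 127, 198 and 89.4 against 71.9, 59.1 and 173, which overlapped. CISH and MYC were picked after their values were seen. Of 19 STAT3 target genes FOS rose and BIRC5 fell, both described below, and the median was 0.37 (-0.17 with all libraries scaled to the same total). Of 29 STAT and JAK signalling components 0 rose and 0 fell, with a median of -0.28. IFNGR2, a chain of the interferon gamma receptor, came nearest, with 0, 3.45 and 1.62 against 110, 91.0 and 102 (5.48 ± 1.63, adjusted p = 0.0732 in limma). Without the 3 libraries with the fewest genes, 2 STAT5 targets rose and 1 fell, and 3 STAT3 targets rose and 2 fell. Among the signalling components 3 rose and 0 fell, while 20.7% of all genes rose and 4.7% fell. SOCS1 and IFNGR2 passed in that fit (adjusted p in limma of 0.0192 and 0.000709).

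Heat shock genes held the gene with the highest fold change of all protein-coding genes that rose. HSPA6 (chromosome 1, 161524540 to 161526894), an HSP70 chaperone that is scarcely made in unstressed cells, had 0, 0.767 and 0 normalised counts with DMSO and 3180, 1892 and 2242 with JPX-0750. Its DMSO values came from 2 reads over the whole group, which gave a ratio of 6749 with an exact 95% counting interval of 1866 to 55757. The log2 fold change was 10.94 ± 0.63 (SE), with adjusted p = 2.74e-09 in limma. DNAJB1 (chromosome 19, 14514769 to 14560391), the HSP40 partner of HSP70, had 935, 421 and 379 with DMSO and 14270, 12820 and 8428 with JPX-0750, a rise of 21.7-fold (4.44 ± 0.43). BAG3 (chromosome 10, 119651380 to 119677819), a co-chaperone that directs clients to autophagy, had 57.5, 36.4 and 32.8 against 1428, 891 and 1246, a rise of 27.8-fold. DNAJB4, a further HSP40, rose by 5.53 ± 0.98 on the log2 scale, and by 4.07 without DMSO replicate 1, where it had no read. For HSPA6, DNAJB1 and BAG3 the lowest JPX-0750 library lay above the highest DMSO library, against 20.3% of all genes tested. They were named because they rose, which favours such separation, so it is no further result.

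Of 30 tested heat shock genes 12 rose and 0 fell, against 4.08% and 0.0921% of all genes tested, with a median of 1.41. The others included the HSP90 gene HSP90AA1, the HSP110 genes HSPH1 and HSPA4L, the small heat shock protein HSPB1, the HSP90 co-chaperone CHORDC1, the collagen chaperone SERPINH1 and the polyubiquitin gene UBB. These 7 were named after their values were seen. HSP90AA1 was among the most abundant messages, at 14370, 11950 and 13110 with DMSO and 66030, 58500 and 64300 with JPX-0750 (log2 fold change 2.26 ± 0.44 SE). The count of 12 ran from 11 to 14 when single libraries were left out, and was 17 without the 3 libraries with the fewest genes. HSPA1A and HSPA1B, near-identical copies that reads cannot always tell apart, were below the level tested.

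Promoters were searched because heat shock genes are known to share a regulatory element. The heat shock element was written TTCNNGAA and searched on both strands from 250 bases before to 50 after each RefSeq gene start (GRCh38.p14). It was found in 6 of 26 heat shock promoters and in 7.84% of 27305 promoters of the same length. Of the 11 that rose and had a promoter in the table, 3 held it. They are printed 5′ to 3′ on the gene's strand with the match in capitals, at chr1:161524426-161524513 (+), chr11:90223025-90223144 (-) and chr11:75562137-75562224 (+), because they show the matches beside genes that rose. CHORDC1 and SERPINH1 were chosen for this after their values were seen.
HSPA6: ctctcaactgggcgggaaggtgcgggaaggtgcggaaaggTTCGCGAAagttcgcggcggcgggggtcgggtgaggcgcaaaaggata
CHORDC1: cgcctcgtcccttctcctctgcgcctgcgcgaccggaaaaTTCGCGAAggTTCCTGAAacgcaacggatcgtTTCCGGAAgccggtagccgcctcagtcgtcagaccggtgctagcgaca
SERPINH1: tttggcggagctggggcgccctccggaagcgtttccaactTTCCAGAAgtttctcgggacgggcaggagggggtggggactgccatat
The match begins 74 bases before the start of HSPA6 and 76 before that of SERPINH1, and CHORDC1 holds 3, at 55, 45 and 23 bases. CHORDC1 had 200, 81.7 and 167 with DMSO and 1102, 1069 and 753 with JPX-0750, and SERPINH1 had 194, 114 and 55.5 against 729, 800 and 705. In both genes every JPX-0750 library lay above every DMSO library, against 20.3% of all genes tested. Both were chosen among genes that rose, which favours such separation, so this is not separate evidence. Over the 211 protein-coding genes that rose and had a promoter, 9.95% held the element. A match describes letters, not binding.

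Genes of the ATF4 response rose in part. PPP1R15A (chromosome 19, 48872421 to 48876058), which brings a phosphatase to eIF2 and restores translation, had 56.6, 116 and 63.0 with DMSO and 4926, 4407 and 1803 with JPX-0750, a rise of 45.0-fold (5.49 ± 0.47 SE, adjusted p = 4.09e-07 in limma). DDIT3 (chromosome 12, 57516588 to 57520517), the stress transcription factor CHOP, had 0, 10.4 and 16.7 against 561, 623 and 297 (6.33 ± 0.90, adjusted p = 0.000175 in limma). Without DMSO replicate 1, which had no DDIT3 read, the value was 5.05, and without DMSO replicate 3 it was 7.13. GDF15, a secreted stress cytokine, had 1 read over the DMSO group and 377, 232 and 245 normalised counts with JPX-0750, a ratio of 1545, with counting error allowing 275 to 61216. SLC7A11, the cystine transporter, rose 27.2-fold (4.77 ± 0.66). All 4 genes had JPX-0750 libraries wholly above the DMSO libraries, against 20.3% of all genes tested. Their calls favour such separation, so it is no further result.

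Of 41 tested members of the ATF4 list 7 rose and 0 fell, against 4.08% and 0.0921% of all genes tested. The list median was 1.01. The others that rose were DDIT4, an inhibitor of mTORC1, ALDH1L2 of mitochondrial folate metabolism and ASNS, the asparagine synthetase, named after their values were seen. The call of ASNS was lost without DMSO replicate 2 or 3 or JPX-0750 replicate 1 or 2. The count ran from 5, without JPX-0750 replicate 1 or 2, to 14, without JPX-0700 replicate 3, and was 19 without the 3 libraries with the fewest genes. ATF4 itself had 832, 307 and 481 against 1174, 1110 and 680, which overlapped. Of 25 ER chaperone and unfolded protein response genes 0 rose and 0 fell, with a median of -0.08, and 2 rose and 0 fell without the 3 libraries with the fewest genes. Of 29 NRF2 antioxidant genes SLC7A11 and HMOX1 rose, against 4.08% of all genes tested, with a list median of -0.18. HMOX1, the haem oxygenase, had 0.898, 0.383 and 1.08 against 161, 127 and 56.6 (5.92 ± 1.09). Of 9 metallothionein and metal response genes 0 changed.

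The ATF4 response element TGATGCAA lay in 5 of 34 promoters of the ATF4 list, in 0 of the 5 that rose and had a promoter, and in 0.923% of all promoters. The related cAMP and ATF element TGACGTCA was present in 1.98% of all promoters and in 5.21% of those of protein-coding genes that rose. It lay in 1 of the 34 promoters of the ATF4 list, that of PPP1R15A. Other motifs lay in few of the 211 promoters of protein-coding genes that rose, and their shares were not tested against those of all promoters. The AP-1 element TGAGTCA lay in 7 (3.32% against 4.92%) and the STAT site TTCNNNGAA in 12 (5.69% against 7.88%). The NF-kB site lay in 0 (0% against 0.194%) and the antioxidant response element in 1 (0.474% against 0.564%). The ATF4 element lay in 2 (0.948% against 0.923%) and either E2F form in 6 (2.84% against 2.31%). Of the list promoters, 2 of 12 for STAT5 targets (16.7%) and 2 of 15 for STAT3 targets (13.3%) held the STAT site. Of 24 immediate early promoters 2 held the cAMP and ATF element and 1 the AP-1 element. Among the 10 of them whose genes rose, these counts were 1, the promoter of DUSP1, and 0. The promoters of PPP1R15A and DUSP1 are printed 5′ to 3′ on the gene's strand with the element in capitals, at chr19:48872323-48872410 (+) and chr5:172771273-172771360 (-). They are 2 genes of different lists that rose and share these letters, and a shared control was not tested.
PPP1R15A: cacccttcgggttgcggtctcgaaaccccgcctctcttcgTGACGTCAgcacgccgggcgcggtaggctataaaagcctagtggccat
DUSP1: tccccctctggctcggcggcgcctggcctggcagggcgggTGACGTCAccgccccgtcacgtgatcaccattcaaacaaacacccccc
The element begins 58 bases before the start of PPP1R15A and 125 before that of DUSP1.

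Immediate early and ERK feedback genes had the highest median of the 36 lists. Of 30 tested 11 rose and 0 fell, against 4.08% and 0.0921% of all genes tested, and the median was 2.50. JUN (chromosome 1, 58780791 to 58784047), one of the subunits that form AP-1, had 0, 23.0 and 10.8 with DMSO and 2492, 1887 and 1128 with JPX-0750 (8.06 ± 0.86 SE, adjusted p = 7.1e-06 in limma). Its log2 fold change was 6.70 without DMSO replicate 1 and 8.99 without DMSO replicate 2. FOSB, a partner of JUN, had 3 reads over the DMSO group and 318, 255 and 295 normalised counts with JPX-0750, a ratio of 545, with counting error allowing 185 to 2657. FOS had 45.8, 29.9 and 28.0 against 568, 500 and 438, a rise of 14.4-fold (3.85 ± 0.55).

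DUSP1, a phosphatase that switches off MAP kinases, had 4 DMSO reads and 113, 159 and 162 normalised counts with JPX-0750. Its log2 fold change was 6.40 (adjusted p = 0.0005 in limma). NR4A2, an orphan nuclear receptor, had 0, 5.75 and 4.85 against 151, 141 and 282 (5.74 ± 1.17, and 4.86 without DMSO replicate 1). The others were the regulators IER2, IER5, EGR1, KLF2 and NR4A3 and the mRNA decay factor ZFP36, named after their values were seen. The count of 11 fell to 7 without JPX-0750 replicate 1 or 2 and was 16 without JPX-0700 replicate 3. It was 18 without the 3 libraries with the fewest genes. Among 20 NF-kB targets and cytokines there were 4 that rose and 0 that fell, with a median of 1.54. NFKBIA, the inhibitor that NF-kB induces against itself, had 229, 217 and 166 with DMSO and 1407, 1023 and 891 with JPX-0750, a rise of 5.36-fold (2.42 ± 0.43). NFKBIZ, a nuclear cofactor of NF-kB, rose by 5.73 ± 0.96, the chemokine CXCL8 by 5.40 ± 1.20 and the apoptosis inhibitor BIRC3 by 4.99 ± 1.15. The call of CXCL8 was lost without JPX-0750 replicate 1, and that of BIRC3 without DMSO replicate 2 or JPX-0750 replicate 1 or 2.

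Of 29 tested p53 targets 6 rose and 0 fell, against 4.08% and 0.0921% of all genes tested. The median was 1.98, with 28 of 29 log2 fold changes above 0, against 6770 of the 11941 genes tested. PLK2, a polo-like kinase, had 10.8, 26.8 and 32.3 with DMSO and 1010, 891 and 820 with JPX-0750, a rise of 40.8-fold (5.35 ± 0.58 SE). GADD45A, a growth arrest gene, had 13.5, 31.4 and 28.5 against 1260, 960 and 317 (4.92 ± 0.61, and 5.52 without JPX-0750 replicate 3). MDM2, the ligase that removes p53, rose 8.47-fold (3.08 ± 0.46). XPC of DNA repair, named after its values were seen, rose as well, and CDKN1A, the cell cycle inhibitor p21, had 79.9, 260 and 215 against 705, 559 and 710 and did not pass (1.98 ± 0.55, adjusted p = 0.0528 in limma). Its groups did not overlap. The count of 6 fell to 4 without DMSO replicate 1 or JPX-0750 replicate 1 or 2, was 16 without JPX-0700 replicate 3 and was 20 without the 3 libraries with the fewest genes.

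Of 14 tested BCL2 family genes 2 rose, against 4.08% of all genes tested. Both are BH3-only genes that promote apoptosis and are also p53 targets. PMAIP1 (NOXA) had 126, 49.1 and 61.9 with DMSO and 1441, 919 and 823 with JPX-0750, a log2 fold change of 3.81 ± 0.52 (SE). BBC3 (PUMA) rose by 2.50 ± 0.68, a call that was lost when any 1 of DMSO replicates 1 and 3 and JPX-0750 replicates 1 to 3 was left out or when libraries were scaled to the same total (adjusted p = 0.119 in limma). The survival gene MCL1 had 500, 630 and 261 against 490, 523 and 502, and BCL2L1 had 65.6, 16.5 and 14 against 20.5, 9.10 and 0. The groups overlapped in both, which were picked after their values were seen, and the list median was -0.37.

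**Figure D2:**
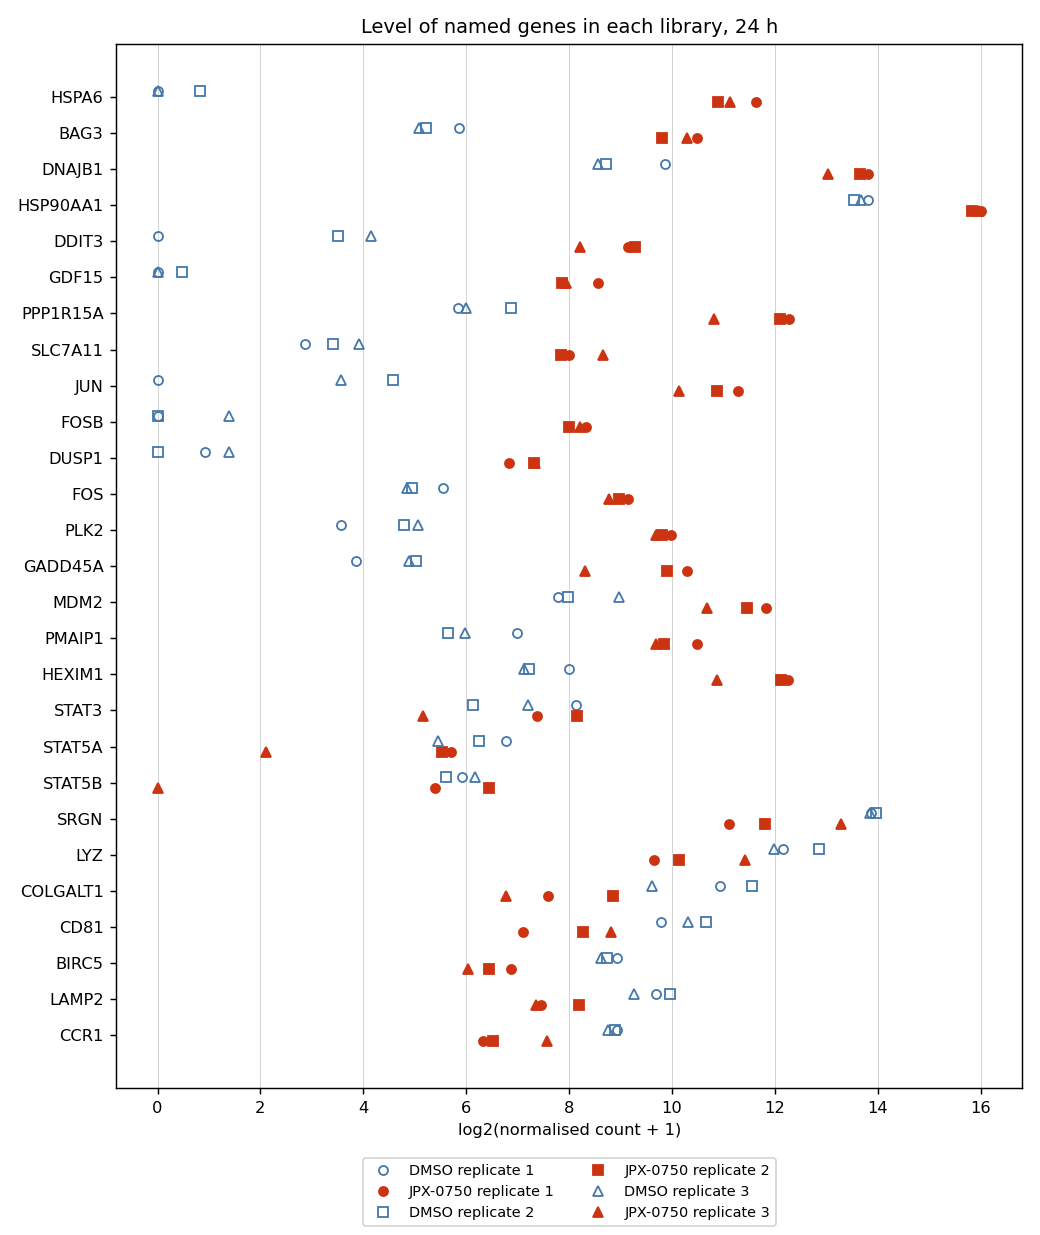
Each row is a gene and each mark 1 library, open blue for DMSO and filled red for JPX-0750, with the marker shape giving the replicate number and the horizontal axis log2 of (normalised count + 1). From HSPA6 to HEXIM1 every JPX-0750 library lies above every DMSO library. For STAT3, STAT5A and STAT5B the groups overlap, and from SRGN to CCR1 the JPX-0750 libraries lie below. Apart from these STAT genes, the rows show genes that passed the test, which favours such separation. HSP90AA1 was added after its values were seen.

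Regulators outside the stress lists rose as well. HEXIM1 (chromosome 17, 45148475 to 45152099) encodes the protein that, held by 7SK RNA, inhibits the elongation kinase P-TEFb. It had 254, 147 and 138 against 4871, 4416 and 1889, a rise of 19.8-fold (4.30 ± 0.45 SE). Of 11 tested genes of the 7SK complex and P-TEFb it was the 1 that changed, against 4.17% of all genes tested.

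HES1, a repressor downstream of Notch, had 0, 2.30 and 3.77 with DMSO and 1191, 350 and 2959 with JPX-0750 (8.74 ± 0.97 SE). Its value was 8.08 without DMSO replicate 1, 9.55 without JPX-0750 replicate 2 and 8.01 without JPX-0750 replicate 3. SGK1, a serum and glucocorticoid induced kinase, had 1 DMSO read and 312, 341 and 352 normalised counts with JPX-0750, from 91, 75 and 211 reads. Its ratio was 1891, with counting error allowing 337 to 74887. PLPP4, a lipid phosphatase, also had 1 DMSO read and 828, 546 and 328 normalised counts with JPX-0750, a ratio of 2804 (501 to 110944). RGS2, which dampens G protein signals, had 5 DMSO reads and 935, 819 and 135 normalised counts with JPX-0750. Its log2 fold change was 7.95 ± 0.86, and 8.84 without JPX-0750 replicate 3. CCDC80, a secreted protein, was also among the 10 protein-coding genes with the highest fold changes, at 7.97 ± 0.92. These 5 genes came from a rule that took only genes whose groups do not overlap. Their separation is therefore no further result.

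The 11 genes that fell came from several functions, and each lost its call in at least 3 of the 9 fits without 1 library, although each passed without the 3 libraries with the fewest genes. COLGALT1 (chromosome 19, 17555649 to 17583157), a collagen galactosyltransferase, fell most, with 1949, 2995 and 779 under DMSO and 192, 459 and 108 with JPX-0750 (-2.96 ± 0.64 SE, adjusted p = 0.0107 in limma). BIRC5, the mitotic regulator survivin, had 487, 427 and 391 against 116, 86.4 and 65.0, which was 4.94-fold lower (-2.31 ± 0.54). AURKA, the Aurora A mitotic kinase, had 411, 346 and 402 against 68.5, 141 and 103 (-1.94 ± 0.53, adjusted p = 0.0490 in limma). The AURKA call was lost in 8 of the 9 fits, all but the one without JPX-0700 replicate 3.

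SRGN (chromosome 10, 69087603 to 69104811), the proteoglycan core of secretory granules, had 14860, 15980 and 14710 with DMSO and 2205, 3593 and 9932 with JPX-0750 (-1.82 ± 0.48 SE, and -2.43 without JPX-0750 replicate 3). LYZ (chromosome 12, 69348381 to 69354234), the granule enzyme lysozyme, had 4575, 7377 and 4055 against 801, 1128 and 2742 (-1.93 ± 0.49). JPX-0750 replicate 3 was the highest of its group for both. CD81, a tetraspanin, fell by 2.19 on the log2 scale, the chemokine receptor CCR1 by 2.06, the lysosomal membrane gene LAMP2 by 1.96 and the glycolytic enzyme ENO1 by 1.49. TXNL4A and LSM4, both components of the splicing machinery, fell by 2.03 and 2.02. Each of the 11 had JPX-0750 libraries wholly below the DMSO libraries, against 9.5% of all genes tested. A call itself favours such separation, so this is not separate evidence.

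Lists of cell cycle and metabolic genes had medians below that of all genes, with few or no members past the test. None of the 53 G1/S and DNA replication genes passed in either direction, and the median was -0.81. In 20 of the 53 the JPX-0750 libraries lay wholly below the DMSO libraries, against 9.5% of all genes tested. MCM4, a subunit of the replicative helicase, came nearest, with 1278, 1077 and 1759 against 277, 573 and 302 (-1.88 ± 0.53 SE, adjusted p = 0.0562 in limma). Without the 3 libraries with the fewest genes 4 of the 53 rose and 13 fell, against 20.7% and 4.7% of all genes tested in that fit. The E2F forms TTTGGCGC and TTTCCCGC lay in 20 of 45 promoters of this list and in 2.31% of all promoters. Of 43 G2/M and mitosis genes BIRC5 and AURKA fell, against 0.0921% of all genes tested, with a median of -0.99. Without the 3 libraries with the fewest genes 1 of the 43 rose and 17 fell. The mitotic count was 0 without any 1 DMSO library or without JPX-0750 replicate 2, and 7 without JPX-0700 replicate 3.

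Of 14 granule and progenitor genes LYZ and SRGN fell, with the lowest list median, -1.45, and none rose. Over all genes tested 0.0921% fell and 4.08% rose. Of 19 glycolysis genes ENO1 fell, with a median of -1.003. Of 35 lysosome and autophagy genes LAMP2 fell, with a median of -0.51. Of 73 nuclear oxidative phosphorylation genes 0 changed, with a median of -0.47, and 2 rose and 16 fell without the 3 libraries with the fewest genes. No member changed among 35 ribosome biogenesis genes (median -0.46), 37 proteasome subunits (-0.39), 17 fatty acid synthesis genes (-0.44), 24 cholesterol biosynthesis genes (-0.03), 17 G1 cyclins, kinases and inhibitors (-0.23), 15 hypoxia genes (0.53), 31 interferon response genes (-0.22), 11 MHC class II and antigen presentation genes (-0.13) or 14 genes of the MLL fusion and HOXA programme (-0.19). Of 76 cytosolic ribosomal protein genes RPL23A and RPS25 rose, against 4.08% of all genes tested, by 1.91 ± 0.45 and 1.71 ± 0.39. With libraries scaled to the same total neither passed (adjusted p in limma of 0.0609 and 0.145). Neither passed without DMSO replicate 1, JPX-0750 replicate 1 or JPX-0750 replicate 2, and 1 passed without DMSO replicate 2. The span of RPL23A holds 4 structured RNA genes. The ribosomal protein median was 0.35, but -0.19 with libraries scaled to the same total and -0.23 after quantile normalisation, so its sign depended on the scaling.

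**Figure D3:**
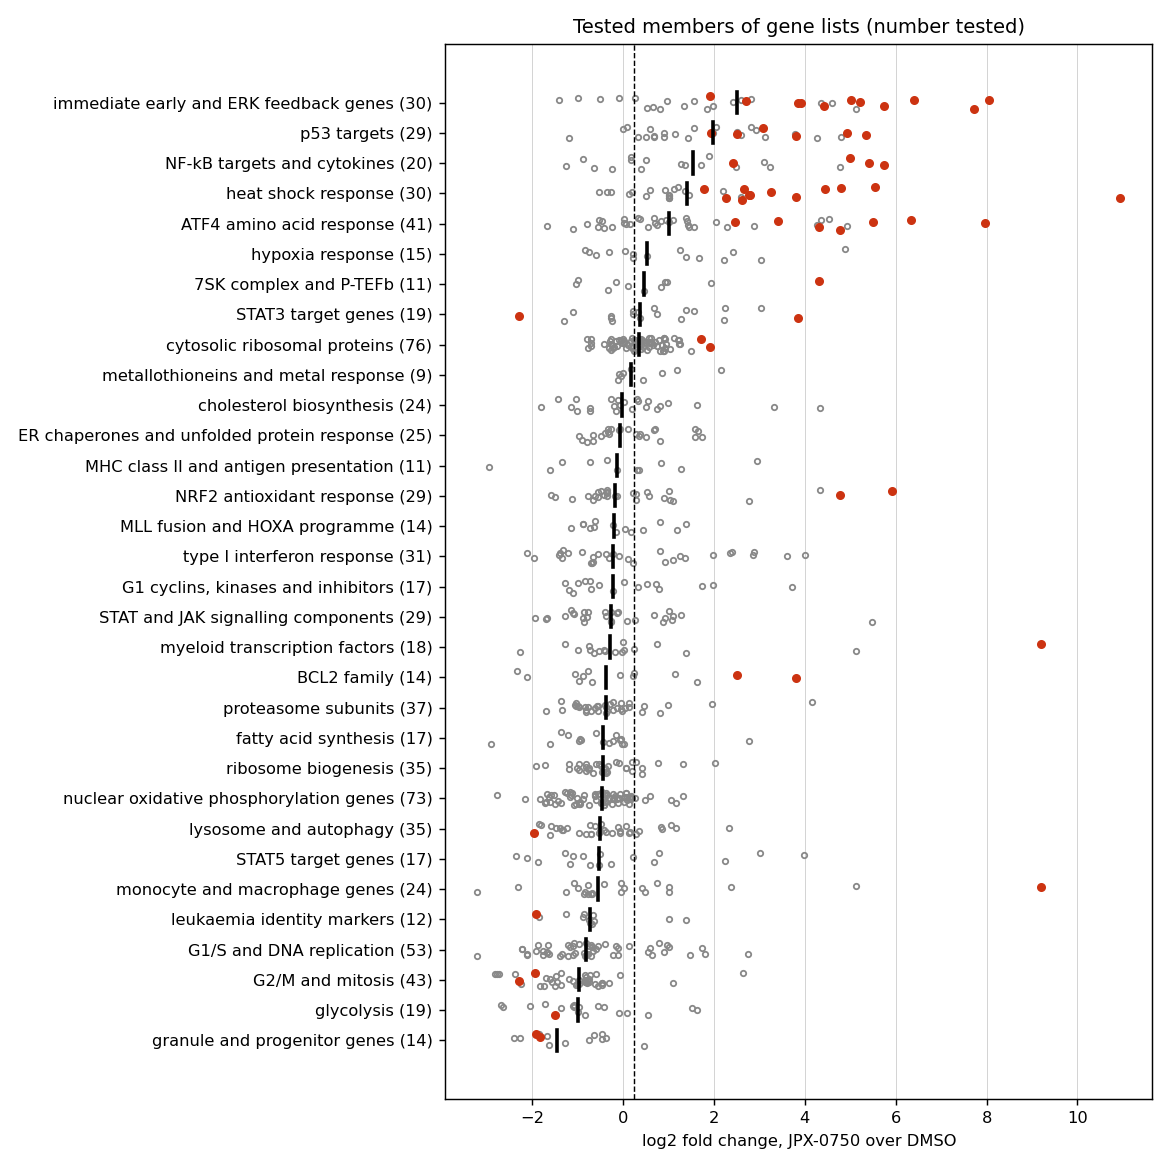
Each row is a gene list with its number of tested members, each point a tested member at its log2 fold change of JPX-0750 over DMSO, filled where it passed the test, and the bar is the list median. The dashed line is the median of all genes tested, 0.24. Immediate early, p53 and NF-kB lists lie to the right, and granule, glycolysis and mitosis lists to the left. The lists of other cell types, with 1 to 3 tested members each, are left out.

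Structured noncoding RNA took a larger share of reads with JPX-0750 than with DMSO. These RNAs guide the modification of ribosomal and spliceosomal RNA, form the spliceosome, process transfer RNA and ribosomal RNA precursors or hold P-TEFb inactive, and most of them carry no poly(A) tail. They took 0.0992%, 0.0438% and 0.264% of reads in DMSO replicates 1 to 3 and 11.7%, 11.6% and 13.7% with JPX-0750. The difference between the means was 12.2 percentage points, with p = 0.1 in a two-sided exact permutation test, the smallest that 3 against 3 libraries allow. Of 260 genes tested 168 rose and 0 fell, against 4.08% and 0.0921% of all genes tested, with a median log2 fold change of 5.95. The JPX-0750 libraries lay wholly above the DMSO libraries in 213, against 20.3% of all genes tested. Another 273 of the 533 genes of this class were too low to be tested. The filter took the mean of both groups, so members near 0 with DMSO were tested only where JPX-0750 was high. Their rise, and part of the median, follow from that filter. JPX-0700 libraries had 8.60% to 10.3% of reads on structured noncoding RNA.

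The rise ran through every family. Of 143 C/D box nucleolar RNA genes, which guide ribose methylation, 96 rose, and of 66 H/ACA box genes, which guide pseudouridylation, 33 rose, with medians of 5.94 and 5.56. SNORD46 (chromosome 1, 44776492 to 44776589), a C/D box RNA, had 5.39, 4.22 and 5.38 with DMSO and 42290, 34510 and 17050 with JPX-0750 (12.26 ± 0.48 SE, adjusted p = 6.24e-11 in limma). It overlaps another annotated gene, as does SNORD83A (11.57 ± 0.56). Of 17 Cajal body RNA genes 11 rose, and of 20 spliceosomal genes 16. No DMSO read fell on 40 of the 143 C/D box, 14 of the 66 H/ACA box and 9 of the 20 spliceosomal genes. For such genes only a rise was possible. RNU12, of the minor spliceosome, had no DMSO read and 3156, 3083 and 2724 normalised counts with JPX-0750. This was at least 5409-fold higher against a floor of 3 reads over the DMSO group. RN7SK (chromosome 6, 52995620 to 52995951) had 3.59, 11.5 and 26.9 against 24690, 25580 and 25970 (11.08 ± 0.55), with 10.41 and 11.71 without DMSO replicates 1 and 3. VTRNA1-1, a vault RNA, had 3 DMSO reads and 5820, 6530 and 1766 normalised counts with JPX-0750, a ratio of 7016 (2399 to 34033).

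Families differed among the JPX-0750 libraries. The 4 Y RNA genes took 1.09%, 1.30% and 7.48% of reads in replicates 1 to 3, most of the last being RNY5 (chromosome 7, 148941488 to 148941571). RNY5 alone had 20170, 24270 and 189900 normalised counts, against 3.59, 4.22 and 5.92 with DMSO. Conversely, the 2 signal recognition particle RNA genes took 3.42%, 3.16% and 0.349%. Replicate 3 was the highest for the former and the lowest for the latter. Without RNY5 the structured difference was 9.78 percentage points, and with nucleolar and Cajal body RNA alone it was 4.46.

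**Figure D4:**
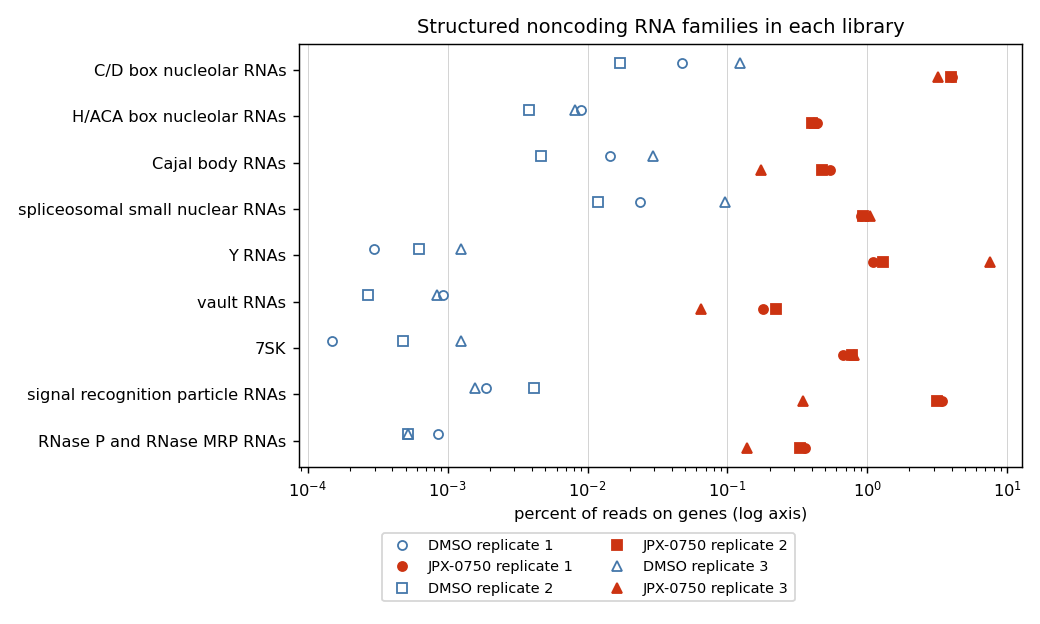
Each row is a family of structured noncoding RNA and each mark 1 library, open blue for DMSO and filled red for JPX-0750. The horizontal axis gives the percent of reads on genes on a log scale. In every family all 3 JPX-0750 libraries lie above all 3 DMSO libraries, and replicate 3 stands apart for Y RNA and signal recognition particle RNA.

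Long noncoding RNA took 1.12% ± 0.135 (SD, n = 3) of reads with DMSO and 7.95% ± 2.85 with JPX-0750. MALAT1 (chromosome 11, 65497738 to 65506516), an abundant nuclear RNA, took 0.547%, 0.176% and 0.437% against 8.92%, 6.05% and 3.49%. Its normalised counts were 13280, 4266 and 9502 against 326700, 199700 and 112800, a rise of 23.9-fold (4.58 ± 0.55 SE), which was 2.74 on the log2 scale after quantile normalisation. NEAT1, the scaffold of nuclear paraspeckles, rose 21.8-fold (4.44 ± 0.43), KCNQ1OT1, an imprinted antisense transcript, 34.0-fold (5.09 ± 0.45), and DNAJC3-AS1 23.2-fold (4.54 ± 0.65). SNHG12, whose span holds 4 structured RNA genes, rose 17.7-fold (4.15 ± 0.43). Of 548 long noncoding RNA genes tested 37 rose and 0 fell, against 4.08% and 0.0921% of all genes tested, with a median of 2.09. As with structured RNA, members near 0 with DMSO were tested only where JPX-0750 was high. No source used here states the counted strand, so reads of an antisense transcript and its partner cannot be told apart. Of the genes that rose and were not structured RNA, 12 hold a structured RNA gene in their span.

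JPX-0750 was then set directly against JPX-0700 at the same time, the doses being unknown. Of the 11941 genes 0 differed (0.0%), and the smallest adjusted p in limma was 0.855. An unadjusted p under 0.05 in limma was found for 344, fewer than that threshold passes on average when no gene differs. Voom with library weights called 1 gene. Intervals on the log2 difference, JPX-0750 minus JPX-0700, remained wide. HSPA6 had 2438 ± 666 (SD, n = 3) normalised counts with JPX-0750 and 3659 ± 2955 with JPX-0700, a log2 difference of -0.30 with a 95% interval of -1.63 to 1.02. For DNAJB1 the interval was -1.57 to 0.25, for BAG3 -1.94 to 0.02 and for PPP1R15A -1.61 to 0.35. For HEXIM1 it was -0.78 to 1.11, for MDM2 -1.14 to 0.80 and for PLK2 -0.14 to 2.31. AURKA had 104 ± 36.3 with JPX-0750 and 324 ± 111 with JPX-0700, and its interval of -2.75 to -0.50 was the only one to leave out 0 among the 54 genes that the naming rule took from those changed against DMSO. Its adjusted p in limma was 0.855. Among 54 intervals at 95%, some would leave out 0 without any difference. Differences inside these intervals were not detectable with 3 libraries a group.

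The labelled cell type was checked against markers. Of 14 leukaemia identity markers 12 were tested, LYZ fell and none rose, against 0.0921% and 4.08% of all genes tested. MYB had 1940, 1696 and 1809 with DMSO and 959, 1105 and 1451 with JPX-0750, FLT3 had 480, 453 and 452 against 236, 277 and 238, and CD33 had 270, 369 and 211 against 113, 150 and 288. The log2 fold changes of MYB and FLT3 were -0.65 ± 0.38 (SE) and -0.88 ± 0.48, and neither passed. In both genes the groups did not overlap, against 29.8% of all genes tested, while in CD33 they did. MYB, FLT3 and CD33 were picked after their values were seen. MEIS1 of the same list went the other way, with 200, 120 and 166 against 503, 473 and 296.5 (1.37 ± 0.58, adjusted p = 0.254 in limma). The list median was -0.74, with 2 of the 12 log2 fold changes above 0. In 4 of the 12 the JPX-0750 libraries lay wholly below the DMSO libraries, and in 1 wholly above. Over all genes tested these shares were 9.5% and 20.3%. Markers of other cells were scarce. The 15 T and NK markers in the table summed to 36.6 to 52.1 normalised counts in DMSO libraries and 27.4 to 107 in JPX-0750 libraries, and 5 had no read in the 6 libraries. The 12 B and plasma cell markers summed to 9.20 to 17.1 and 6.66 to 54.6, the 14 erythroid and megakaryocyte markers to 2.69 to 47.2 and 30.8 to 63.3, and the 14 epithelial and fibroblast markers to 28.5 to 57.5 and 27.3 to 130, with 3, 8 and 7 without a read. None of the 8 tested markers of other cells passed the test. COL1A1, a fibroblast collagen gene named after its values were seen, had 0 reads in the DMSO libraries and 5, 1 and 65 in JPX-0750 replicates 1 to 3, so its groups did not overlap (adjusted p = 0.111 in limma). Without the 3 libraries with the fewest genes COL1A1 passed (adjusted p = 0.0394 in limma) as the only epithelial and fibroblast marker, and 1 T and NK marker rose. Their part in the results was not tested. In such bulk RNA, fewer cells of a kind and less RNA per cell cannot be told apart.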

How the data were processed

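RNA of 9 MV4-11 libraries was analysed from the single table the authors deposited. Per the submitters' processing notes, the build was GRCh38 and the tools named, with no role or order, were STAR 2.4.2a, FastQC 0.11.9, SAMtools 1.4, featureCounts 2.0.3 and DESeq2 (no version). No source used here gives the strand or annotation. The deposited values are other than raw counts: gene counts divided by 1 factor per library, written with a decimal comma. All values (100%) were whole multiples of their library's smallest value (tolerance 1e-06), so reads were recovered, 1 read being worth 0.383 to 4.55 normalised counts in the 6 libraries. Symbols were matched to RefSeq (24159 by symbol, 1436 by synonym, 1334 unmatched).

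The genes whose 6 values averaged at least 5 were fitted on log2(value + 1) with limma 3.58.1 in R 4.3.3 (trended variance, 9 libraries, 6 residual degrees of freedom, two-sided tests). The fit was tested on simulated data of 12124 genes: 33 of 50 genes raised 16-fold, 8 of 50 raised 4-fold, 28 of 50 lowered 16-fold, 5 of 50 lowered 4-fold and 5 of 11924 unchanged genes were called. Changed genes were drawn only from those with a mean of at least 50, so the shares do not cover weaker genes. Each simulated gene had 1 spread for all libraries, and the libraries poor in genes were not imitated. Ratios for at most 3 DMSO reads carry exact 95% counting intervals per scaled depth. Intervals and floors cover counting error only, since no molecular identifiers are named.

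The members and the 36 gene lists were chosen with earlier results of these data known. Of each list up to 4 called genes with the largest fold change were named, or the one with the smallest p, besides the STAT genes. The 10 highest and 10 lowest called protein-coding genes were taken among those with a mean of at least 50 and groups that did not overlap. Added to these were 5 called genes each of structured and long noncoding RNA. Some genes that the rule names are not reported here, and other genes are marked in the text.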

Additional observations from a re-analysis of the deposited data

How the results depend on the processing

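Counts of genes that rose and fell, 487 and 11, were recomputed under other settings. With pseudocount 5, 17 fell, and with no filter 6 fell. Total-sum scaling gave 307 and 59, with the median of all genes moving from 0.24 to -0.28. TMM gave 25 lower, quantile normalisation 66 (with log2 fold changes of 3.71 for BIRC3, 5.51 for DUSP1, 4.90 for NFKBIZ, 6.86 for RGS2 and -3.01 for SRGN), and scaling to protein-coding reads, chosen after seeing the data, 19. Voom with library weights gave 3033 and 801, and 1 gene for JPX-0750 against JPX-0700. A fit of only the 6 libraries gave 765 and 72. Leaving out the 3 gene-poor libraries together gave 2517 and 573. Leaving out 1 library gave 254 to 1034 higher and 0 to 123 lower, the lowest being without JPX-0750 replicate 1 (254 higher), JPX-0750 replicate 2 (260) and DMSO replicate 2 (307 and 0), and the highest without JPX-0700 replicate 3. The structured share difference of 12.2 percentage points was 4.46 with nucleolar and Cajal body RNA only and 9.78 without RNY5. The cause of these differences was not tested.

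Deviations of same-numbered libraries correlated at -0.04, -0.07 and -0.12 between DMSO and JPX-0750, at -0.09, -0.10 and -0.15 between DMSO and JPX-0700, and at 0.13, 0.17 and 0.19 between JPX-0700 and JPX-0750, so the numbers were not taken to pair DMSO with JPX-0750. A fit with the replicate number as a block gave 463 higher and 9 lower, with AURKA, CCR1, TXNL4A, LSM4 and ENO1 at adjusted p in limma of 0.0802, 0.0680, 0.0588, 0.0543 and 0.0538. No result reversed its direction past the threshold under the settings run. The planned edgeR and DESeq2 alternatives on recovered reads were not run. Reads of 726043 to 1941860 in JPX-0750 libraries limit what can be seen of weakly expressed genes that fell.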

Other observations

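Histone genes of the replication-dependent clusters, whose mRNA ends in a stem loop and normally lacks a poly(A) tail, were looked at after seeing the data. Of 73 such genes 58 were tested, 18 rose and 0 fell, against 4.08% and 0.0921% of all genes tested. The median log2 fold change of the 58 was 3.68, against 0.24 over all genes tested. Members near 0 with DMSO were tested only where JPX-0750 was high. HIST1H2AG had 0, 4.22 and 4.85 normalised counts with DMSO and 798, 646 and 443 with JPX-0750 (7.61 ± 0.77 SE), and HIST1H4E had 0, 2.30 and 1.62 against 811, 632 and 155 (7.72 ± 0.87). The most abundant member, HIST1H4C, had 3171, 7953 and 5927 against 3547, 3593 and 2987 and did not pass. Summed over all members, histone genes took 0.206%, 0.354% and 0.470% of reads with DMSO and 0.440%, 0.413% and 0.215% with JPX-0750, so the groups overlapped in the total while single members rose.

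The genomic length of protein-coding genes was also compared. The 255 that rose had a median span of 36.8 kb, with an upper quartile of 136 kb, against 30.5 kb and 71.4 kb for all 10677 tested, and the 11 that fell had a median of 17.7 kb.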
